A study of Mus musculus with 12 samples.

Results

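The alpha-2-macroglobulin family was followed in mouse prostate through 5 genes, Mug1, Mug2, Pzp, A2m and Cd109, of the 23284 genes in the deposited table. The members were taken by name. They were chosen from measured values, since the difference of Mug1 and Mug2 between genotypes in these same libraries was known when the family was picked. Their genotype differences are therefore given as a description with no test. Prostate was collected at 4 months of age for 6 libraries of wild-type (+/+) mice. Another 6 libraries came from mice homozygous for the targeted allele (-/-), called null here. Both genotypes were on a hybrid 129/SvImJ and C57Bl/6J background, and both yielded frozen tissue from which poly-A RNA was sequenced. The labels do not say which lobes were taken, whether a library came from 1 animal, or in which cells or when the targeted gene was lost, so any p-value reflects variation from library to library, which may be partly technical. In bulk tissue, fewer cells of a type and less RNA per cell cannot be told apart.

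Alpha-2-macroglobulins are large secreted proteins that trap proteases. A protease cuts an exposed bait region, the protein closes around the protease, and an internal thioester can bind it covalently. The closed complex is cleared by the receptor Lrp1, and several members also carry growth factors and cytokines. Mug1 and Mug2 encode murinoglobulins, single-chain family members of rodents that are known as plasma proteins made in liver. Pzp encodes the alpha-2-macroglobulin of mouse plasma and A2m a close relative, while Cd109 encodes a membrane-anchored member that binds TGF-beta and its receptors.

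Mug1, Mug2, Pzp and A2m lie on chromosome 6 and Cd109 on chromosome 9 in RefSeq. The RefSeq promoter table (GRCm38.p6, not the build mm9 named in the submitters' processing notes) held 3 of the 5 members, Mug1, Mug2 and Pzp. The 250 bases before the annotated start are shown for Mug1 and Mug2, the members with the large genotype differences, because their upstream sequences are near copies. Mug1 lies at chr6:121838291-121838540 and Mug2 at chr6:122006548-122006797, both on the + strand, and capitals mark the longest block that is identical in both windows.
Mug1: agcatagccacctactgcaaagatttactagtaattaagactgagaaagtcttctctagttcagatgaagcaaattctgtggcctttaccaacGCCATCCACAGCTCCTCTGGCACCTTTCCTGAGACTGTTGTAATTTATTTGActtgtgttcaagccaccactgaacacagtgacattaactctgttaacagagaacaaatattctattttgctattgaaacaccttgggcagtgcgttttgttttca
Mug2: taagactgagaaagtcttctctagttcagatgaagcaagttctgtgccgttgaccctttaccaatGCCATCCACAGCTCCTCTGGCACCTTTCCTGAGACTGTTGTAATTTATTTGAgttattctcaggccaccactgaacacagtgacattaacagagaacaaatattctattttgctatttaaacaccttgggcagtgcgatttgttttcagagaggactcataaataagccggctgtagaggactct
The capital block is 52 bases long and runs from -157 to -106 in Mug1 and from -185 to -134 in Mug2, counted from the annotated start. With the 50 bases after each start included, the windows of 300 bases aligned over 272 columns, of which 247 were identical (90.8%), with the 2 annotated starts offset by 37 bases. The GC content of the upstream windows was 40.0% for Mug1 and 42.0% for Mug2. Motifs were searched on both strands and counted also in all 32851 RefSeq windows of 250 bases. The hexamer AGAACA, part of the androgen receptor element, occurred once in each of Mug1 (at -56), Mug2 (at -93) and Pzp (at -126). It was in 16.1% of all windows. The Mug1 and Mug2 matches fall on the same site of the aligned copies, since the annotated starts are offset by 37 bases. The full palindrome, AGAACA and TGTTCT separated by 3 bases, was in none of the 3 windows and in 0.00913% of all. TTCNNNGAA, the STAT element, was in none of the 3 (7.02% of all), as were the forkhead element TGTTTAC (3.17% of all) and TATAAA (12.4% of all). ATAAATA, an AT-rich variant of the last, occurred at -27 in Mug2 and in 5.17% of all windows. It was not in the searched bases of Mug1 and Pzp. With the starts offset by 37 bases, the Mug1 bases opposite this match lie after the Mug1 start and were not searched. These matches describe letters in the windows only.

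Values were deposited on a log2 scale for 12 libraries, without counts, so the depth is unknown. Genes that a prostate should not express scattered around a floor: over 1123 olfactory receptor genes the median was 2.85 and the 95th percentile 3.51, and a value under 3.51 is called at the floor. The libraries of each genotype were split into 2 sets of 3, a size set in advance. The sets were found from the expression values and not given by the labels. They were wild-type libraries 1, 2 and 3 (set A) and 4, 5 and 6 (set B), and null libraries 1, 2 and 5 (set A) and 3, 4 and 6 (set B). Tests over genes were therefore also run on the 4 set means. All 7 luminal markers were detected, with a summed level of 18.22 to 18.39 in wild-type and 16.55 to 16.81 in null libraries. Of the 7, 6 were called lower and 1 higher, beside 53.1% of all tested genes called in either direction. Sums were taken on the linear scale, so the highest marker weighs most. The highest luminal marker had a wild-type mean of 17.99, against a median of 13.45 over the 7. The 5 seminal vesicle markers summed to 6.07 to 11.6 in wild-type and 16.68 to 20.25 in null libraries. Of the 12 hepatocyte markers, 8 were at the floor in both genotypes, among them Alb, Apoa1, Ahsg, Fga, Fgb and Fgg, and the summed level was 7.05 to 7.39 in wild-type and 7.10 to 7.53 in null libraries.

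Mug1 was the most abundant member in wild-type prostate and was at or near the floor in null prostate. The 6 wild-type values had a minimum of 11.69, a median of 12.34 and a maximum of 13.01. The 6 null values had a minimum of 2.61, a median of 3.25 and a maximum of 3.69. The groups were separated by a wide gap, and 1 null library, number 1, lay above the floor. The wild-type mean was 12.35 ± 0.67 and the null mean 3.16 ± 0.41 (SD, n = 6 each). The difference of -9.18 on the log2 scale is not a fold change because the null values are at the floor. In wild-type prostate Mug1 ranked 351 of the 23284 genes by mean value, with 1.5% of genes above it. Of the 12 hepatocyte markers, the 8 at the floor included albumin and the fibrinogen chains, whereas Ttr (5.06) and Hpx (4.45) were above it in all 6 wild-type libraries and Apoa2 and Apoh in 4 of 6. The luminal and seminal vesicle sums moved with the genotype, and the part of any of these cell types in the Mug1 difference was not tested.

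Mug2, the second murinoglobulin, was lower by several log2 units in null prostate too, from a much lower wild-type level. Its wild-type values had a minimum of 5.29, a median of 6.13 and a maximum of 6.57, while the null values had a minimum of 2.33, a median of 2.74 and a maximum of 3.19. The groups did not overlap, and every null library was at the floor. The means were 6.02 ± 0.52 and 2.73 ± 0.29 (SD, n = 6 each), a difference of -3.30. Mug2 ranked 11832 of 23284 genes in wild-type prostate.

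Mug1 and Mug2 have long stretches in common, which bears on how reads are assigned between them. Of the 4608 windows of 50 bases in the longest Mug1 transcript (GENCODE M21), 964 (20.9%) also occurred in Mug2, and 1113 (24.2%) in Mug2 or the neighbouring pseudogene Mug-ps1. Of the 4530 windows of Mug2, 1889 (41.7%) occurred in Mug1 or Mug-ps1. No window of Pzp, A2m or Cd109 occurred in another of these transcripts. The sources used here do not give how reads with several matches were counted, so the Mug2 level is uncertain. The Mug1 level minus the Mug2 level in the 6 wild-type libraries was 5.13, 5.30, 6.16, 6.59, 7.72 and 7.04. The difference thus varied between libraries, and the part of read assignment in it was not tested. Mug-ps1, a transcribed pseudogene that is not a member, had the same order of genotypes: its wild-type values ran from 4.12 to 6.82 (mean 5.58 ± 1.02, SD, n = 6) and its null values from 2.21 to 3.33 (mean 2.80 ± 0.38, SD, n = 6), with no overlap.

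**Figure D1:**
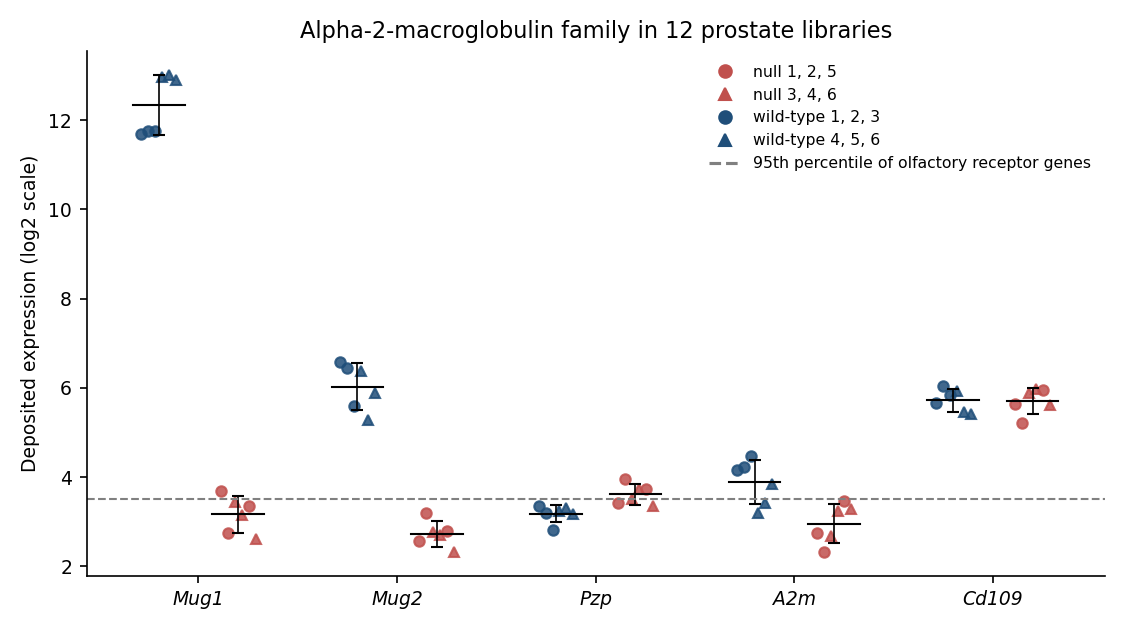
Deposited log2 value (vertical axis) of each family member in each library, with wild-type libraries in blue and null libraries in red; circles are set A and triangles set B, lines the mean and bars the SD (n = 6), and the dashed line is the 95th percentile of olfactory receptor genes (3.51). Mug1 and Mug2 are separated by genotype, Cd109 is not, and Pzp and A2m lie close to the dashed line.

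Cd109, the membrane-anchored member, differed between genotypes by less than the spread of the libraries. The wild-type values had a minimum of 5.42, a median of 5.75 and a maximum of 6.03, and the null values a minimum of 5.20, a median of 5.76 and a maximum of 5.97. The groups overlapped almost wholly. The means were 5.72 ± 0.25 and 5.71 ± 0.29 (SD, n = 6 each), a difference of -0.010.

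A2m was barely detected and then mainly in wild-type set A. Its 6 wild-type values were 4.17, 4.22, 4.46, 3.19, 3.41 and 3.85, with 4 libraries above the floor. The null values had a minimum of 2.32, a median of 2.98 and a maximum of 3.46, and all were at the floor. The groups overlapped, with means of 3.88 ± 0.50 and 2.95 ± 0.44 (SD, n = 6 each) and a difference of -0.93. The wild-type libraries 1, 2 and 3 held the highest values.

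Pzp was the member that was slightly higher in null libraries, at the edge of detection. All wild-type values were at the floor, with a minimum of 2.82, a median of 3.21 and a maximum of 3.35. The null values had a minimum of 3.36, a median of 3.61 and a maximum of 3.97, and 3 of 6 libraries lay above the floor. The groups did not overlap, but the highest wild-type and the lowest null library were only 3.35 and 3.36. The means were 3.18 ± 0.19 and 3.61 ± 0.23 (SD, n = 6 each), a difference of 0.44. RefSeq lists A2m as an older name of Pzp, so the deposited names are used as they stand.

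By level within wild-type prostate the order was Mug1, Mug2, Cd109, A2m and Pzp. On a per-length scale, the log2 level minus log2 of the transcript length in kilobases was 10.13 for Mug1 (4657 bases), 3.83 for Mug2 (4579 bases), 3.17 for Cd109 (5860 bases), 1.68 for A2m (4605 bases) and 0.95 for Pzp (4681 bases). Mug1 stood clear of the rest, whereas the wild-type libraries of Mug2 overlapped those of Cd109, and those of A2m overlapped those of Pzp. In null prostate the per-length levels were 3.16 for Cd109, 1.39 for Pzp, 0.94 for Mug1, 0.75 for A2m and 0.53 for Mug2. Cd109 had the highest level and was the only member with all libraries above the floor. The null means of Mug1, A2m and Mug2 were at the floor and that of Pzp at its edge. A value at the floor does not measure the transcript, so the order among these members is not read. The same holds for wild-type Pzp. The sources used here do not say whether the deposited values already account for length.

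Of the 5 members, 3 passed the filter for testing (6 or more libraries with a value of 4 or higher): Mug1, Mug2 and Cd109. Mug1 and Mug2 passed it through their wild-type libraries alone, since no null library of either reached 4. The fit over all genes (limma, Benjamini-Hochberg adjusted p under 0.05) called 2 of the 3, Mug1 and Mug2, beside 53.1% of the 15096 tested genes. Because the family was picked on this contrast, that count is no test of the members and nothing is read from it. Over all tested genes 4224 were called higher and 3789 lower, or 3366 and 4874 after upper quartile scaling, and 14.5% were called over the 4 set means. Genotypes did not overlap for 32.6% of tested genes. Differences of at least 2-fold in called genes were rarer, at 1058 genes (7.01%), of which 606 were lower.

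**Figure D2:**
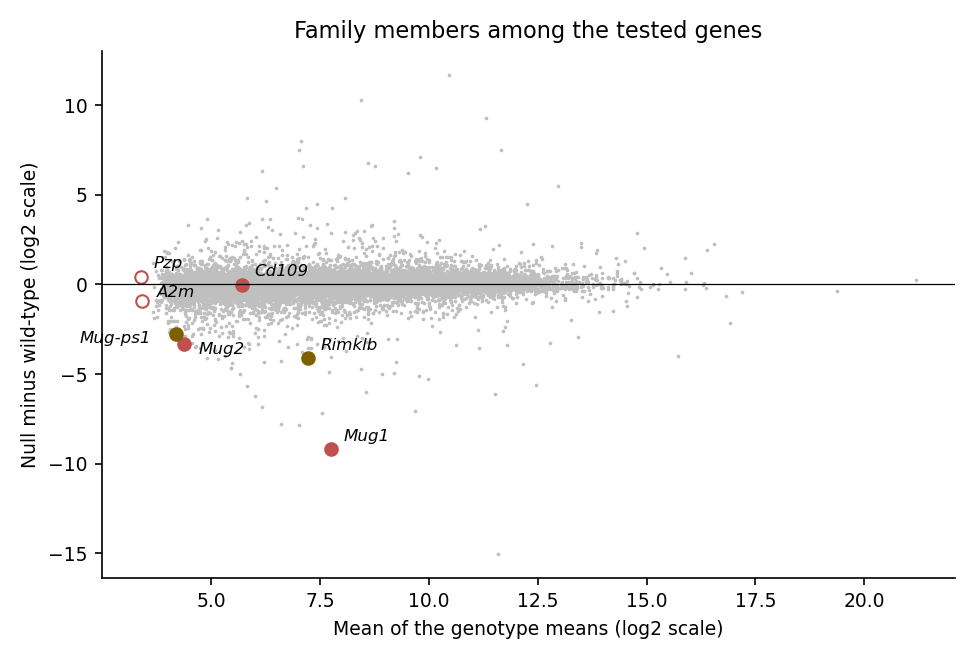
Null minus wild-type difference (vertical axis, log2) against the mean of the genotype means (horizontal axis, log2) for the 15096 tested genes (grey) with the family members (red; open where not tested) and 2 neighbouring genes, Mug-ps1 and Rimklb (brown). Mug1 lies at -9.18 and Mug2 at -3.30, and Cd109 lies on the zero line.

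Within wild-type prostate Mug1 differed between the 2 library sets by more than nearly all genes. Libraries 1, 2 and 3 had 11.69, 11.76 and 11.75 (mean 11.73, SD 0.035, n = 3), and libraries 4, 5 and 6 had 12.97, 13.01 and 12.91 (mean 12.96, SD 0.047, n = 3). The sets did not overlap, and the gap of 1.23 on the log2 scale was many times the spread within a set. Of the tested genes, 181 (1.20%), Mug1 included, had a gap at least as large in either direction, and the median size of the gap was 0.14. The sets were found from these same expression values, so the gap is a description. A2m ran the other way, with 4.28 in set A and 3.49 in set B, although at a level near the floor. Mug2 had set means of 6.20 and 5.85, and 16.7% of tested genes had a gap at least that large. Seminal vesicle markers summed to 11.52 to 11.6 in set A and 6.07 to 6.38 in set B, leukocyte markers to 10.91 to 10.97 and 10.11 to 10.19, and endothelial markers to 10.02 to 10.03 and 9.38 to 9.51. Smooth muscle markers were higher in set A as well (15.95 to 16.03 and 15.83 to 15.91). The luminal sum (18.22 to 18.32 and 18.34 to 18.39) and the hepatocyte sum (7.05 to 7.13 and 7.30 to 7.39) were higher in set B. Of the 12 hepatocyte markers, 8 were at the floor in both genotypes. Of the 4 tested, Apoa2 (3.06 and 4.27), Apoh (3.33 and 3.65) and Hpx (4.33 and 4.58) were higher in set B. Ttr, the highest of them, was not (5.087 and 5.025). The part of these cell types in the Mug1 gap was not tested. The null difference of Mug1 was -9.80 with wild-type set A left out and -8.57 with set B left out.

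**Figure D3:**
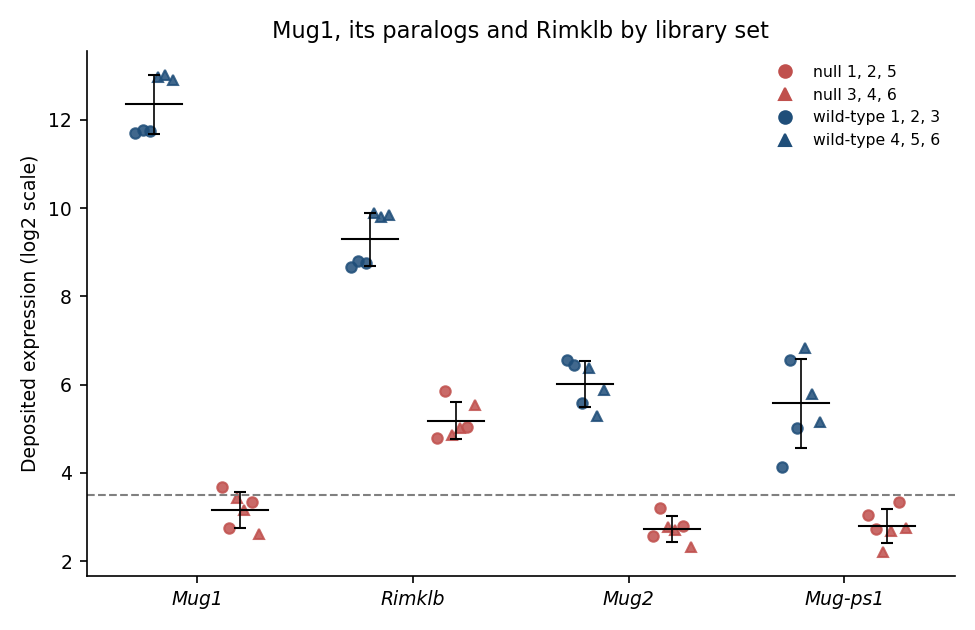
Deposited log2 values (vertical axis) of Mug1, Rimklb, Mug2 and Mug-ps1 in wild-type (blue) and null (red) libraries, with circles for set A and triangles for set B of each genotype; long lines are genotype means, bars the SD (n = 6), and the dashed line is the floor (3.51). Wild-type Mug1 and Rimklb are higher in set B by 1.23 and 1.11, and the sets of Mug2 and Mug-ps1 overlap.

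The genes whose pattern was most like Mug1 over all 12 libraries were Slc26a4, an anion exchanger (r = 0.999), C130074G19Rik (r = 0.998), Gpr37l1, a G protein-coupled receptor (r = 0.998), Rnf186, a RING finger protein (r = 0.998), and Abpd (r = 0.997). These values are dominated by the genotype difference, which was -5.0 for Slc26a4 and -7.87 for Abpd. After the genotype means were taken out, the nearest patterns over the 12 deviations were Rnf186 (r = 0.954), Cd55, a complement inhibitor (r = 0.952), Col6a3, a collagen VI chain (r = 0.950), Vill, a villin relative (r = 0.942), and Mmp7, a secreted metalloprotease (r = 0.941). Those correlations rest largely on the 2 wild-type sets, which the 12 points share.
For Mug2 the most like genes over 12 libraries were Ap1ar (r = 0.983), Ttc7b (r = 0.979), B3gnt2 (r = 0.978), Cldn11 (r = 0.978) and Hint2 (r = 0.978). Over the deviations they were Camk4 (r = 0.877), Acn9 (r = 0.860), Nr1h4 (r = 0.838), Cirh1a (r = 0.837) and Pigz (r = 0.835). All 6 null values of Mug2 were at the floor, so its null deviations are scatter at the floor.
For Cd109 they were Mars2 (r = 0.904), Tmem194b (r = 0.850), Mxd3 (r = 0.767), Pcdhb5 (r = 0.763) and Nsmaf (r = 0.762) over the libraries, and Mars2 (r = 0.916), Polr3a (r = 0.879), Tmem194b (r = 0.859), D830031N03Rik (r = 0.856) and Ppp2r5a (r = 0.830) over the deviations. The lists nearest to Mug1, Mug2 and Cd109 had no gene in common, and the correlations are descriptions of 12 libraries. Each list holds the 5 highest r values among the 15096 tested genes, and with so many genes high values also arise without any relation.

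A2m, Mug1, Mug2, Gm10319 and Mug-ps1 follow each other in the RefSeq order of the table's genes on chromosome 6, while Pzp lies farther along, with 113 genes of the table between A2m and Pzp. Rimklb, which encodes an enzyme that joins glutamate to N-acetylaspartate or citrate and stands 7 places after Mug1, was the neighbour with the largest difference. Its wild-type values were 8.67, 8.79, 8.75, 9.89, 9.79 and 9.85, and its null values had a minimum of 4.79, a maximum of 5.85 and no overlap with them. Rimklb fell from 9.29 ± 0.61 to 5.18 ± 0.42 (SD, n = 6 each), a difference of -4.11 with a standard error of 0.27 (limma adjusted p = 6.04e-08, and 0.00497 over set means). Its set gap of 1.11 within wild-type prostate was close to that of Mug1. The Mug1 level minus the Rimklb level in the 6 wild-type libraries was 3.06 ± 0.087 (SD), with a range of 2.97 to 3.22, against 6.32 ± 1.0 for Mug1 minus Mug2. Both genes share the step between the 2 wild-type sets, so these 6 differences do not stand for 6 independent libraries. The Pearson r of Mug1 and Rimklb was 0.996 over the 6 wild-type libraries. Over the 12 deviations from genotype means, with null Mug1 at or near the floor, it was 0.434.
The genes between Mug-ps1 and Rimklb differed by far less than either of them. M6pr, a receptor for lysosomal enzymes, differed by -0.12 (limma adjusted p = 0.0248, and 0.454 over set means), and Phc1, a Polycomb protein, by -0.19 (limma adjusted p = 0.158). Klrg1, a lymphocyte receptor, was not tested and differed by -0.58, with means near the floor (3.676 in wild-type and 3.095 in null libraries). Among 21 genes within 10 places of the A2m to Mug-ps1 run, 12 were tested, 1 rose (Mical3, by 0.73, limma adjusted p = 1.13e-06) and 8 fell, which is 75.0% called beside 53.1% of all tested genes. Over set means 4 of the 12 were called (33.3%, beside 14.5% of all tested genes): Mical3, Usp18, Rimklb and Tuba8, an alpha-tubulin named after its values were seen. Of these, Usp18, a protease that removes the ubiquitin-like protein ISG15, fell by 1.08 (limma adjusted p = 3.35e-07). Rimklb and Usp18 were the genes of the 12 that differed by at least 2-fold. Between A2m and Pzp lie 110 genes without Mug1, Mug2 and Mug-ps1. They include Rimklb and the other genes after A2m that were already counted among the 21. Of the 110, 74 were tested, 16 rose and 21 fell, so 50% were called, near the 53.1% of all tested genes.

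**Figure D4:**
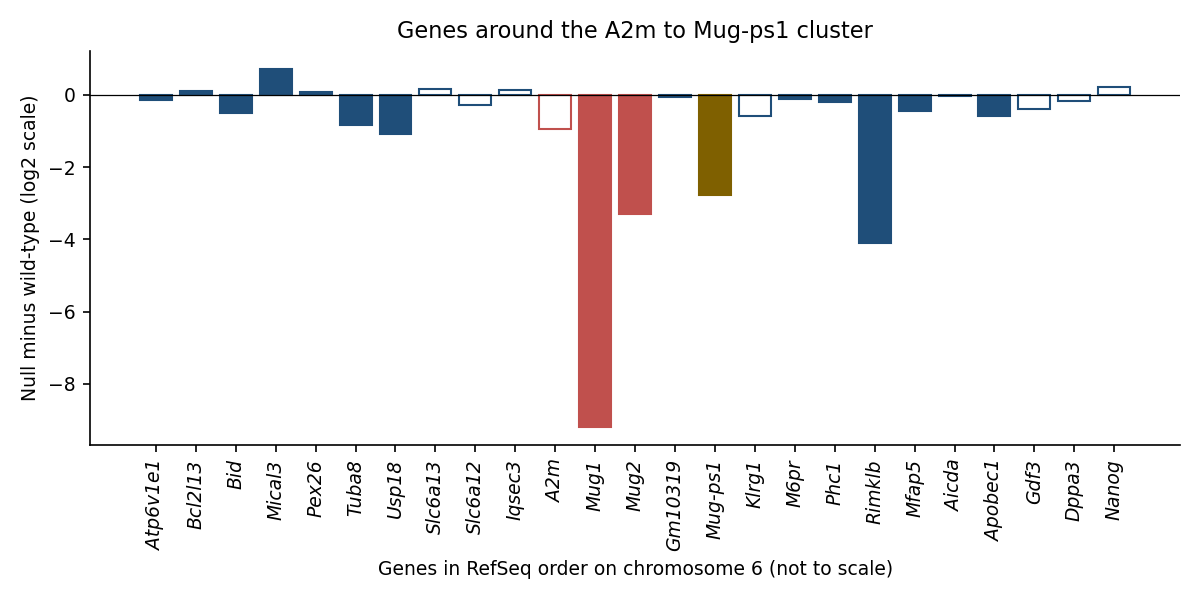
Null minus wild-type difference (vertical axis, log2) of the genes of the table around the macroglobulin run on chromosome 6, in RefSeq order and not to distance (horizontal axis); filled bars are tested genes and open bars genes that were not tested, with members in red and Mug-ps1 in brown. Mug1, Mug2, Mug-ps1 and Rimklb reach -9.18, -3.30, -2.78 and -4.11, with genes of smaller difference between Mug-ps1 and Rimklb.

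Genes that work with the family were counted in 7 lists. Of 76 members, 73 were in the table and 54 tested: 10 rose, 12 fell and 32 were not called, so 40.7% were called against 53.1% of all tested genes, and 10 were called over set means (18.5%, beside 14.5% of all tested genes). Over all tested genes the median difference was 0.012.
Relatives that carry a thioester were led by complement C3. Of 3 tested, C3 and C4b fell and C4a was not called, with a median of -0.91 (66.7% called, beside 53.1% of all tested genes). C3, the central complement protein, fell from 11.26 ± 0.099 to 9.81 ± 0.40 (SD, n = 6 each), a difference of -1.45 (SE 0.15, limma adjusted p = 4.27e-06, and 0.00591 over set means). C4b differed by -0.91 (limma adjusted p = 8.97e-04), which was not called over set means (adjusted p = 0.0656), and its reads can be shared with C4a.
Of the receptors and uptake proteins, 2 of 4 tested rose (50%, beside 53.1% of all tested genes) and the median was 0.45. Lrp1, the clearance receptor of the closed complexes, rose from 10.68 to 11.17, by 0.49 (limma adjusted p = 3.21e-06, and 0.0342 over set means). Lrpap1, the chaperone of Lrp1, rose by 0.41 (limma adjusted p = 2.27e-05), but not over set means (adjusted p = 0.0642).
In the TGF-beta axis of Cd109, 2 of 11 tested rose, 2 fell and the median was 0.10. The share called was 36.4%, beside 53.1% of all tested genes. The type I receptor Tgfbr1 rose by 0.38 (limma adjusted p = 1.13e-06, and 0.0381 over set means), and the ubiquitin ligase Smurf2 by 0.34 (limma adjusted p = 6.95e-06, and 0.0549 over set means). The type II receptor Tgfbr2 fell by 0.68 (limma adjusted p = 3.47e-04, and 0.0772 over set means), and the ligand Tgfb2 by 0.27 (limma adjusted p = 0.00723, and 0.113 over set means). The Tgfb2 call was lost with wild-type set B left out.

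Proteases listed as candidates for the trap held calls in both directions, and whether the family traps each of them was not tested. Of 14 tested, 2 rose, 3 fell and 9 were not called, with a median of 0.032. The share called was 35.7%, beside 53.1% of all tested genes. Tmprss2, a luminal serine protease that is also on the luminal marker list, had means of 13.45 and 12.19 and fell by 1.25 (limma adjusted p = 1.41e-05, and 0.0195 over set means). Mmp2, a stromal metalloprotease, rose by 0.65 (limma adjusted p = 1.05e-05, and 0.0348 over set means). Plat, tissue plasminogen activator, fell by 0.57 (limma adjusted p = 7.18e-04) and Hpn, hepsin, rose by 0.69 (limma adjusted p = 0.00130), and neither was called over set means (adjusted p = 0.107 for each). Mmp9, named after its values were seen to complete the count, was the remaining call and fell by 0.45. It lost that call over set means, with either wild-type set or null set B left out, and without any 1 of wild-type libraries 1, 5 and 6 and null libraries 3, 4 and 6. Plau, also named after its values were seen, was not called, with null values of 10.27, 11.43 and 10.98 in set A and 6.65, 6.38 and 6.74 in set B.
Of the growth factors and cytokines that the family can carry, 1 of 8 tested rose and 2 fell, with a median of -0.031. The share called was 37.5%, beside 53.1% of all tested genes. Tnf had means of 4.93 and 3.89 and fell by 1.04 (limma adjusted p = 6.45e-05, and 0.0268 over set means). Il1b fell by 0.72 (limma adjusted p = 0.00219, and 0.0700 over set means), in libraries where the summed leukocyte markers were 10.11 to 10.97 in wild-type and 9.58 to 9.98 in null; the part of leukocyte content was not tested. Pdgfa rose by 0.25 (limma adjusted p = 0.0257, and 0.225 over set means), and its call was also lost after upper quartile scaling, with wild-type set A, wild-type set B or null set B left out, and without wild-type library 2, wild-type library 5 or null library 4.
In the IL-6 and STAT3 axis, a route of the acute phase, 2 of 10 tested rose and 3 fell, with a median of 0.019. The share called was 50%, beside 53.1% of all tested genes. Lifr, the leukaemia inhibitory factor receptor, rose from 8.54 to 10.37, by 1.82 (limma adjusted p = 1.88e-09, and 0.00354 over set means). The kinase Jak2 rose by 0.84 (limma adjusted p = 9.48e-07, and 0.0185 over set means). The feedback inhibitor Socs3 fell by 1.07 (limma adjusted p = 9.12e-06, and 0.0283 over set means), and the receptor Il6ra by 0.63 (limma adjusted p = 4.02e-05, and 0.0428 over set means). Cebpd, named after its values were seen, was the remaining call and fell by 0.53, a call that was lost over set means and with wild-type set A or either null set left out.
Plasma proteins of hepatocytes were mostly at the floor, and 4 of 12 were tested. Of these, 25% were called, beside 53.1% of all tested genes. Ttr, transthyretin, was at 5.06 in wild-type and 5.0 in null libraries (limma adjusted p = 0.771), and Hpx, hemopexin, at 4.45 and 4.24 (limma adjusted p = 0.323). Apoh, named after its values were seen, was the single call and rose from 3.49 to 4.27, and the call was lost over set means and with wild-type set A or null set B left out.

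**Figure D5:**
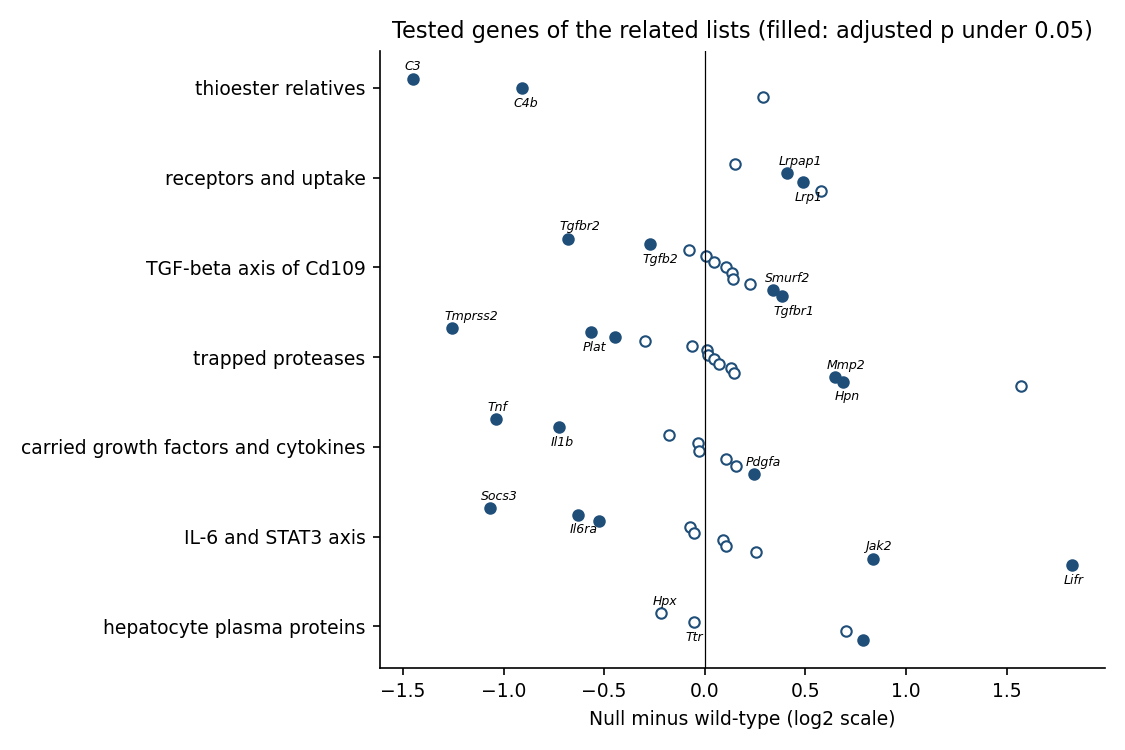
Null minus wild-type difference (horizontal axis, log2) of the tested genes of 7 related lists (rows); filled points passed an adjusted p of 0.05 over all tested genes. C3 at -1.45 and Lifr at 1.82 mark the ends of the called genes.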

How the data were processed

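The table holds log2 values deposited by the authors for 23284 genes in 12 libraries that look variance-stabilised (the sources used here do not give the transformation). Per the submitters' processing notes, the build was mm9 and the tools were DESeq, Cufflinks 2.0.2, TopHat2 2.0.4 and CASAVA 1.8.2, with roles not given. With no counts, genes at 4 or more in at least 6 libraries (15096) were tested with limma 3.58.1 (trend, robust; R 4.3.3), genotype the only term, adjusted over all tested genes at a threshold of 0.05. The members and lists were chosen with earlier results of these data known. The text names all members, for each list the 4 called genes of smallest adjusted p (or, below 2 calls, the 2 genes of highest mean), the 5 genes most like each tested member by Pearson r, and chromosome 6 neighbours within 10 places. Library sets are splits into triplets of nearest libraries, using genes whose mean reached 10. Sequences and gene order are from RefSeq GRCm38.p6. Alternatives were other scalings, moderation and filters, set means, and libraries or sets left out. The fit was tested on simulated data. The targeted gene is not reported here.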

Additional observations from a re-analysis of the deposited data

Results flagged for a closer look

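Among 56 groups of 6 libraries (28 genes in each genotype), 4 held a library far from the others by Dixon's criterion, and chance marks about 1 in 20 groups. Pzp was 2.82 in wild-type library 3, below the next value of 3.16, both at the floor. Hpx was 3.89 in wild-type library 2, below 4.47. Pdgfa was 8.53 in null library 4, above 8.28, and Tnf was 4.36 in null library 1, above 3.91.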

How the results depend on the processing

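Over 22 alternatives the sign of a member's difference varied only for Cd109, within its spread; since the members were chosen on this contrast, this is no support for it. The cause of the shifts below was not tested. Over set means limma called 2195 genes. Called genes were 1 for thioester relatives (2 at an unadjusted p under 0.05), 1 for receptors and uptake (2 unadjusted), 1 for the TGF-beta axis (4 unadjusted) and 2 for the protease list (4 unadjusted). They were 1 for growth factors and cytokines (2 unadjusted) and 0 for hepatocyte plasma proteins (1 at an unadjusted p under 0.05). The IL-6 and STAT3 axis had 4 called genes over set means (4 unadjusted). The hepatocyte count was 2 with no filter, 0 with a filter at 5 (0 unadjusted, 1 gene tested), 0 without wild-type set A (1 unadjusted), 2 without wild-type set B, 2 without null set A and 0 without null set B (0 unadjusted), and 1 to 2 with each library left out, 2 being without null library 2. The growth factor count was 1 with a filter at 5 and 5 without null set A. Mug1 differed by -9.80 without wild-type set A and by -8.57 without set B, and by -9.31 to -9.05 with each library left out. Leaving out each library gave 7586 to 7887 called genes, -3.44 to -3.19 for Mug2, -1.07 to -0.81 for A2m, 0.36 to 0.49 for Pzp and -0.070 to 0.091 for Cd109. A2m was tested only with no filter, so it has no call elsewhere. No paired analysis was possible because the labels give no replicate numbers. Values at the floor limit Pzp, A2m and null Mug1 and Mug2, and the depth is unknown.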
